A study of Homo sapiens with 2 samples.

Results

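The genes described here are 45 enzymes that make, recycle or break down purine and pyrimidine nucleotides and deoxynucleotides, taken by gene symbol from a list chosen by function. All 45 were found among the 25343 gene entries of both libraries. The cells were Huh7, an established human liver cancer line labelled as well differentiated and of hepatocyte origin, grown before the experiment in DMEM with serum. They were kept for 6 days in low glucose medium (0.45 g/L) or in high glucose medium (4.5 g/L), and at each passage only live cells were seeded again. There was 1 library of total RNA per medium, so no replicate spread exists, no test between media is possible, and every difference below describes 2 libraries.

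Values are TPM (transcripts among 1000000, corrected for transcript length), which keep no record of depth. Each difference is log2(TPM + 1) in low glucose minus that in high glucose, given for genes with a mean of at least 1 TPM, a scale that understates the differences of low genes. The 2-fold rule asks for a difference of 1 or more, or of -1 or less. Of the 45 genes, 43 were compared. The labelled cell type was checked against 11 hepatocyte and hepatoma markers, which lay between 154 and 16441 TPM in low glucose and between 211 and 20859 TPM in high glucose. Of 12 markers of other cell types, CD68 (39.3 and 20.4 TPM in low and high glucose) and COL1A2 (24.6 and 18.7 TPM) were the most abundant, the endothelial marker KDR was listed at 0 in both libraries, and the 4 endothelial markers summed to 2.19 TPM in low and 2.14 TPM in high glucose.

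Cells obtain nucleotides by building the base ring step by step (de novo synthesis) or by joining free bases to a ribose phosphate and phosphorylating nucleosides (salvage). The salvage class used here also holds the nucleoside phosphorylases PNP, UPP1 and TYMP and adenosine deaminase ADA. De novo synthesis and the salvage of free bases draw on phosphoribosyl pyrophosphate, a sugar phosphate made from a product of the pentose phosphate pathway. Deoxynucleotides for DNA come from ribonucleotide reductase, with thymidylate synthase supplying the thymine base, and several of these enzymes are made mainly in S phase. The liver is known as an organ with active purine synthesis that also exports purines and degrades them to uric acid.

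Most members were somewhat lower in low glucose and few differed by much. Among the 43 compared, 32 (74.4%) lay below 0, where 45.3% of all 13745 genes compared did. The median difference of the members was -0.28, and that of all genes compared was 0.05. At least 2-fold lower was 1 member, the cytosolic thymidine kinase gene TK1, against 1.10% of all genes compared. At least 2-fold higher was 1 member, the uridine phosphorylase gene UPP1, against 3.65% of all genes compared. At a threshold of 1.5-fold, 5 members were lower (TK1, RRM2, AK4, TYMS and SAMHD1), against 6.07% of all genes, and 2 were higher (UPP1 and XDH), against 13.0%. With median-of-ratios or trimmed-mean scaling, 9 members were at least 1.5-fold lower, and the shares of all genes were 8.91% and 9.0%. Together the 45 genes held 4430 TPM in low glucose and 5524 TPM in high glucose, a ratio of 0.802.

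**Figure D1:**
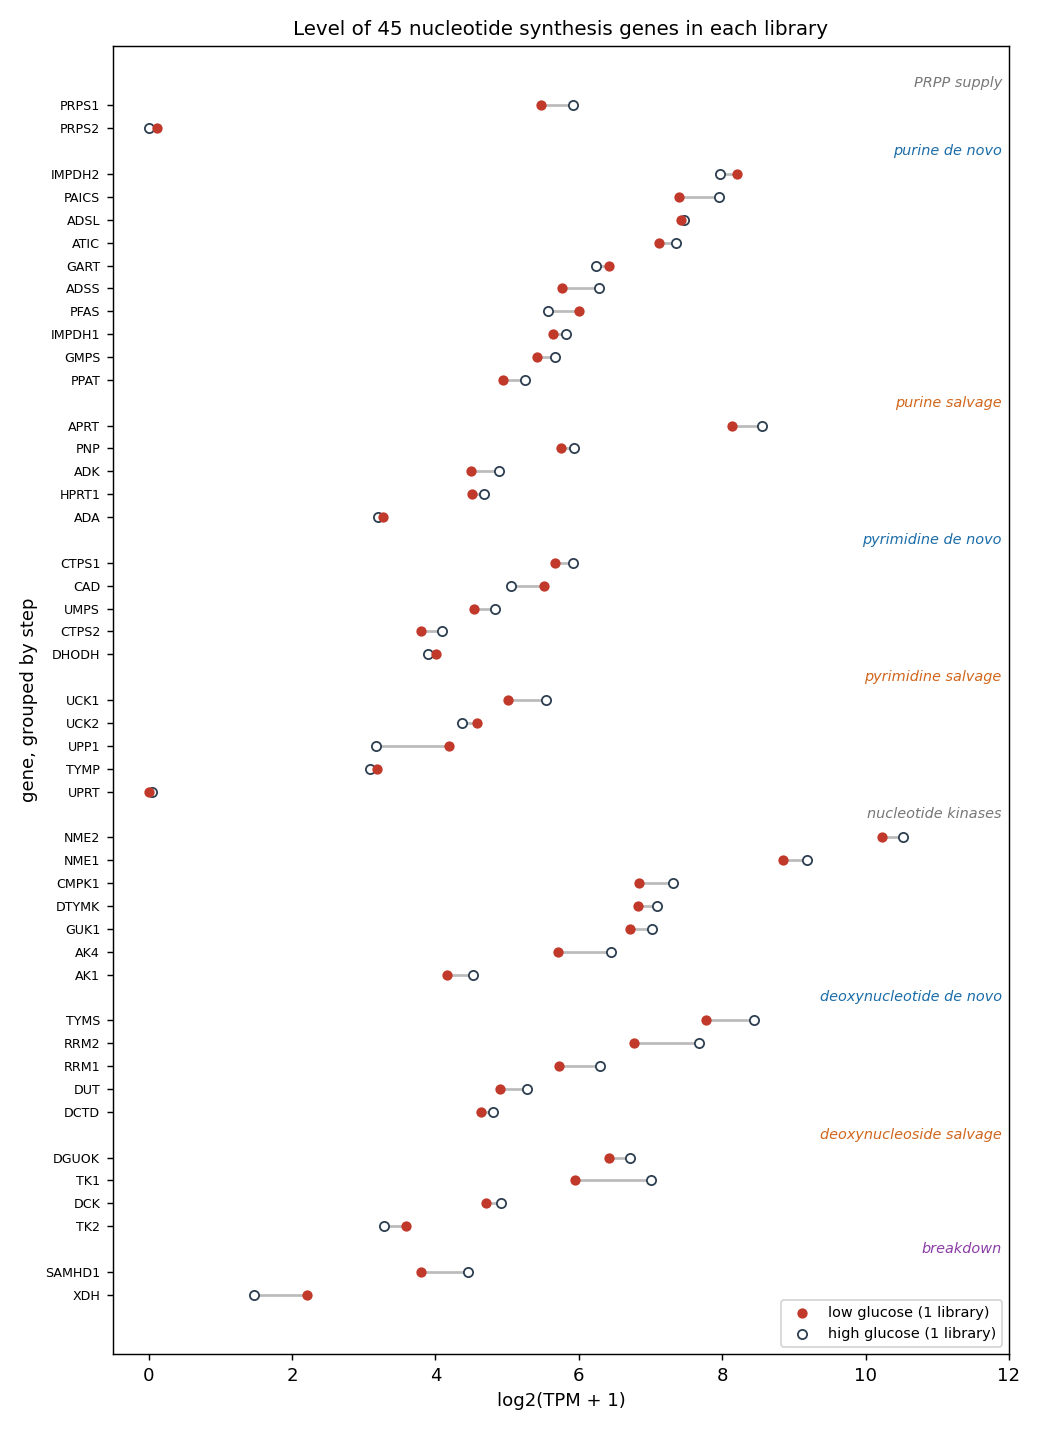
Level of each of the 45 genes as log2(TPM + 1), grouped by step, in the low glucose library (filled red points) and the high glucose library (open points), with 1 library per medium and a grey line joining the pair. The nucleotide kinase genes all lie to the left in low glucose, while UPP1, XDH, CAD and PFAS lie to the right.

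The deoxynucleotide branch held the 2 lowest differences of all members, those of TK1 and RRM2. TK1, which phosphorylates thymidine in the cytosol (hg19 chromosome 17, 76170160 to 76183285), stood at 61.0 TPM in low glucose and 127 TPM in high glucose, a difference of -1.05 at the 0.88th percentile of all genes compared. RRM2, the small subunit of ribonucleotide reductase that carries its radical site (chromosome 2, 10262695 to 10271546), stood at 109 TPM in low and 203 TPM in high glucose (-0.90, 1.58th percentile). Both are known as genes expressed mainly in S phase. TYMS, thymidylate synthase (chromosome 18, 657604 to 673499), stood at 218 TPM in low and 348 TPM in high glucose (-0.67). Its interval shares 3176 bases with ENOSF1, which stood at 62.3 TPM in low and 32.4 TPM in high glucose, and strand-specific counting is not stated, so reads of the shared part cannot be told apart. The large reductase subunit RRM1 stood at 51.9 TPM in low and 77.3 TPM in high glucose (-0.56).

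The other enzymes of this branch differed less. DUT, which removes dUTP, stood at 29.0 TPM in low and 38.0 TPM in high glucose (-0.38). DCTD, which deaminates dCMP to dUMP, stood at 23.8 and 27.0 TPM in low and high glucose (-0.17). Thus all 5 enzymes of the de novo route to deoxynucleotides lay below 0 (45.3% of all genes compared did), with a median of -0.56. Their summed TPM was 431 in low and 693 in high glucose, a ratio of 0.622. Among the salvage kinases besides TK1, deoxycytidine kinase DCK (25 TPM in low and 29.1 TPM in high glucose) and the mitochondrial deoxyguanosine kinase DGUOK (84.5 and 104 TPM in low and high glucose) were slightly lower. The mitochondrial thymidine kinase TK2 went the other way, at 11.1 TPM in low and 8.76 TPM in high glucose (0.31). Cytosolic and mitochondrial thymidine kinase transcripts therefore stood at a ratio of 5.51 in low glucose and 14.5 in high glucose, a comparison within each library that no scaling between libraries alters.

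The bases before the start of TK1, RRM2 and TYMS are shown because these are the lowest members of the DNA branch. They come from RefSeq on GRCh38.p14, each with the 150 bases that precede a gene start, 5′ to 3′ on the gene's strand. Capitals mark a CCAAT box (ATTGG when it lies on the other strand) or an E2F-type match. Of the starts listed for TK1 and RRM2, 2 for each gene, the one with more matches is shown.
TK1 (chr17:78187053-78187202, minus strand): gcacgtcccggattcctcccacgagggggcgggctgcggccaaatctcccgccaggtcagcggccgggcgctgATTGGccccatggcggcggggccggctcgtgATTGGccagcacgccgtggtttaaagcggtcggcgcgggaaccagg
RRM2 (chr2:10122589-10122738, plus strand): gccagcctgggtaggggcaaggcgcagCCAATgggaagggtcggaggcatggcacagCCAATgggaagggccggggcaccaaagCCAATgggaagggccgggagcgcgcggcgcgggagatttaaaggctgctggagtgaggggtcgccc
TYMS (chr18:657503-657652, plus strand): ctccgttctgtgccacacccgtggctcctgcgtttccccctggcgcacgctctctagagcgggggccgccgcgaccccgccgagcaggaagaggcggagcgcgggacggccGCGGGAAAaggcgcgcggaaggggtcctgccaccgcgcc

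The RRM2 stretch holds 3 CCAAT boxes, whose first bases lie 123, 93 and 66 bases before the start, and the TK1 stretch holds 2, at 77 and 46 bases before it. TYMS holds 1 E2F-type match, 39 bases before the start. The letters searched on both strands, in windows of 250 bases before to 50 after each listed start, were TTTGGCGC, TTTCCCGC, TTTGCCGC and TTTCGCGC for E2F, CACGTG for the E-box, CCAAT, and TGATGNAA for an ATF4-type element; no matches of different motifs overlapped in the members. RefSeq windows were matched for 43 members, ADSS by its newer symbol, and not for ADSL or IMPDH2. A CCAAT box was in a window of 17 members (39.5%), against 39.7% of all 27305 genes in the table. E2F-type letters were in 5 members (11.6%: TYMS, DUT, DCK, GART and PRPS2), against 3.99% of all genes. The E-box was in 7 members (16.3%: PPAT, PAICS, ATIC, AK4, NME1, DHODH and DCK), against 8.77% of all genes, and the ATF4-type letters were in 1 (DCTD, 2.33%), against 4.46%. A match describes letters only, and 17 members have several starts in the table, which gives them more windows. No filter by gene type or expression was applied to the 27305 genes, whereas the members are enzyme genes and nearly all were expressed. The shares therefore compare unlike sets.

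Replication and proliferation genes were lower in the same library. In a list of 18 such genes, chosen with earlier results of these data known, 17 lay below 0, 4 were at least 2-fold lower and the median was -0.76. Over all genes compared, 45.3% lay below 0, 1.10% were at least 2-fold lower and the median was 0.05. The list's summed TPM was 1559 in low and 2817 in high glucose, with PCNA, the polymerase clamp, at 222 and 624 TPM in low and high glucose and MKI67, a proliferation marker, at 82.1 TPM in low and 123 TPM in high glucose. The E2F1 gene stood at 64.9 TPM in low and 86.8 TPM in high glucose (-0.42). The part of proliferation in the values of the deoxynucleotide enzymes was not tested, and in bulk RNA fewer cells in S phase and less RNA per cell cannot be told apart.

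**Figure D2:**
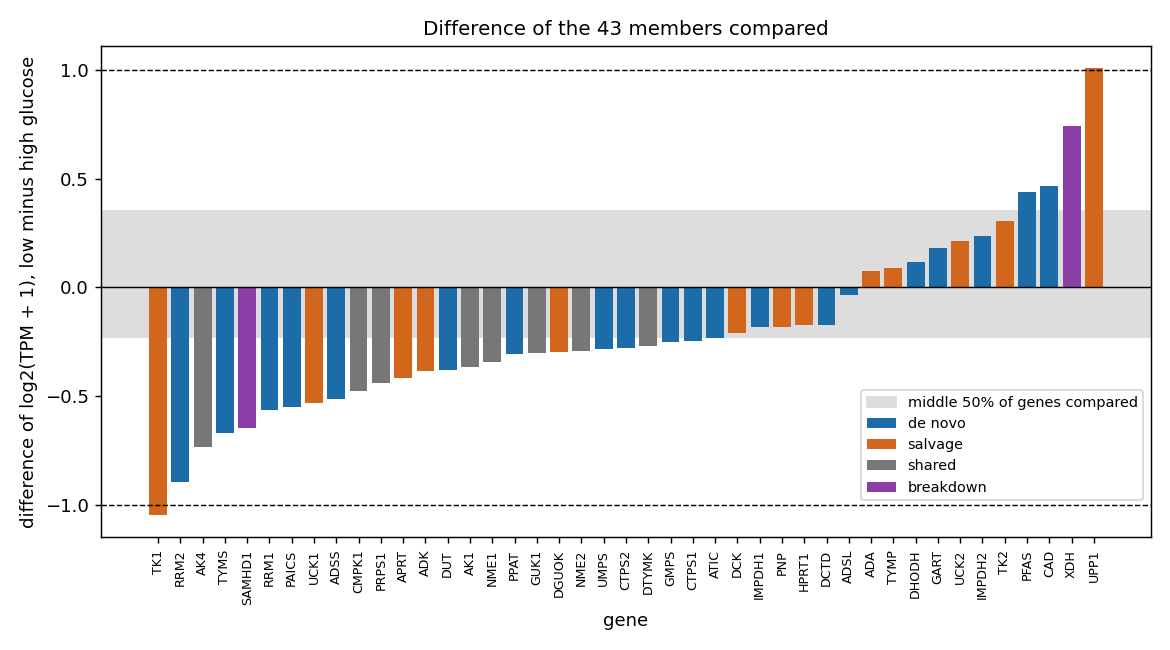
Log2(TPM + 1) in low glucose minus high glucose for the 43 members compared, ordered from lowest to highest and coloured by class, with 1 library per medium; dashed lines mark the 2-fold rule and the grey band the middle 50% of all genes compared (-0.23 to 0.35). TK1 (-1.05) and UPP1 (1.01) pass the rule, and 32 of the 43 bars point down.

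Purine synthesis was uneven along the pathway. PPAT, which commits phosphoribosyl pyrophosphate to the purine ring, stood at 29.7 TPM in low and 37.0 TPM in high glucose (-0.31). Of the enzymes that follow, GART, a trifunctional protein, was slightly higher at 84.4 TPM in low and 74.3 TPM in high glucose (0.18). PFAS, which adds an amide nitrogen from glutamine, stood at 63.2 TPM in low and 46.4 TPM in high glucose (0.44). PAICS, a bifunctional carboxylase and synthetase, stood at 168 TPM in low and 247 TPM in high glucose (-0.55). ADSL, which releases fumarate at a pair of steps, was level at 172 and 176 TPM in low and high glucose (-0.03). ATIC, which closes the ring to IMP, stood at 138 TPM in low and 163 TPM in high glucose (-0.23). Among these genes GART and PFAS thus lay above 0 and PPAT, PAICS, ADSL and ATIC below, all within 2-fold.

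After IMP the pathway divides. On the branch to AMP, adenylosuccinate synthase ADSS stood at 53.2 TPM in low and 76.5 TPM in high glucose (-0.52). The branch to GMP begins with IMP dehydrogenase, for which IMPDH2 was the more abundant gene at 294 TPM in low and 249 TPM in high glucose (0.24), while IMPDH1 stood at 48.7 TPM in low and 55.4 TPM in high glucose (-0.18). The ratio of IMPDH2 to IMPDH1 was 6.03 in low and 4.50 in high glucose. GMPS, which completes GMP, stood at 41.6 and 49.7 TPM in low and high glucose (-0.25). Over the 10 purine de novo genes, 7 lay below 0, against 45.3% of all genes compared, and the median was -0.21. Their summed TPM was 1092 in low and 1173 in high glucose, a ratio of 0.931.

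PPAT and PAICS encode the first enzyme and a later one of this pathway and lie head to head on chromosome 4, with 112 bases between their hg19 intervals (57259529 to 57301802 and 57301915 to 57327534). The stretch between their nearest RefSeq starts on GRCh38.p14, 136 bases from which the genes are read in opposite directions, is given on the plus strand, that of PAICS; it holds none of the letters searched, so it has no capitals. An E-box match shared by windows of both genes lies outside it, 40 bases past that PAICS start.
PPAT and PAICS (chr4:56435616-56435751, plus strand): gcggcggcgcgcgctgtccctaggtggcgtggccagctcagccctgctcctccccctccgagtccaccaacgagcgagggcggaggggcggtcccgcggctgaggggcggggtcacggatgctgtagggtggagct
Transcript levels of the pair differed within each library, with PAICS higher than PPAT in low glucose (168 against 29.7 TPM) and in high glucose (247 against 37.0 TPM), and both were lower in low glucose.

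Purine salvage genes were slightly lower, apart from ADA. APRT, which salvages adenine, was the most abundant at 282 TPM in low and 377 TPM in high glucose (-0.42). HPRT1, which salvages hypoxanthine and guanine, stood at 21.7 TPM in low and 24.6 TPM in high glucose (-0.17). Adenosine kinase ADK stood at 21.6 TPM in low and 28.5 TPM in high glucose (-0.39), and the purine nucleoside phosphorylase gene PNP at 53.0 and 60.1 TPM in low and high glucose (-0.18). Adenosine deaminase ADA was nearly level at 8.66 TPM in low and 8.16 TPM in high glucose (0.08), and its sign turned with median-of-ratios scaling, with trimmed-mean scaling and after expression-group medians were subtracted. Of the phosphoribosyl pyrophosphate synthetase genes, PRPS1 stood at 43.6 TPM in low and 59.5 TPM in high glucose (-0.44). Its relative PRPS2 was listed at 0.08 TPM in low glucose and 0 in high glucose and was not compared.

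Pyrimidine synthesis held the de novo gene with the highest difference. CAD, the trifunctional enzyme that starts the pathway, stood at 44.9 TPM in low and 32.2 TPM in high glucose (0.47, 81.8th percentile). DHODH, the mitochondrial step, was nearly level at 15.1 TPM in low and 13.8 TPM in high glucose (0.12). UMPS, which makes UMP, stood at 22.3 TPM in low and 27.5 TPM in high glucose (-0.29). The CTP synthases were both slightly lower, CTPS1 at 49.8 TPM in low and 59.4 TPM in high glucose and CTPS2 at 13.0 TPM in low and 16.0 TPM in high glucose, with their ratio nearly the same at 3.84 in low and 3.72 in high glucose. The summed TPM of the 5 genes was 145 in low and 149 in high glucose, a ratio of 0.975.

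Pyrimidine salvage was the step with the widest range. UPP1 (hg19 chromosome 7, 48128200 to 48148330) cleaves uridine to uracil and ribose-1-phosphate, a sugar phosphate that can enter central carbon metabolism. It stood at 17.2 TPM in low and 8.05 TPM in high glucose, a TPM ratio of 2.14 and a difference of 1.01 at the 96.4th percentile. This lies close to the rule, and UPP1 fell short of it under 5 alternatives (0.77 to 0.97). The bases before the most upstream of its 3 RefSeq starts hold none of the letters searched and are shown because UPP1 is the member with the highest difference.
UPP1 (chr7:48088554-48088703, plus strand, GRCh38.p14): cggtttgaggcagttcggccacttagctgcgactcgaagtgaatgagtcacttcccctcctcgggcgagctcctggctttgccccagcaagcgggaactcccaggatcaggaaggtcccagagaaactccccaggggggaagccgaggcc
The uridine-cytidine kinases differed in opposite directions, UCK1 at 31.3 TPM in low and 45.7 TPM in high glucose (-0.53) and UCK2 at 22.9 TPM in low and 19.6 TPM in high glucose (0.21), so that UCK2 to UCK1 stood at 0.731 in low and 0.429 in high glucose. Thymidine phosphorylase TYMP was nearly level at 8.08 TPM in low and 7.53 TPM in high glucose; its interval shares 688 bases with SCO2 (46.0 and 63.9 TPM in low and high glucose), and its sign turned after expression-group medians were subtracted. UPRT, a homologue of the uracil salvage enzyme of microbes, was listed at 0 in low glucose and 0.03 TPM in high glucose and was not compared.

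De novo and salvage enzymes differed little as classes by their medians. The 20 de novo enzymes, those of deoxynucleotides included, had a median difference of -0.25 with 15 below 0 (75%), against 45.3% of all genes compared. The 13 salvage enzymes compared, of 14, had a median of -0.18 with 8 below 0 (61.5%), and they held both genes past the 2-fold rule, TK1 lower and UPP1 higher. The classes' ranges overlapped, from -0.90 to 0.47 for de novo and from -1.05 to 1.01 for salvage. By summed TPM the order was the reverse. The ratio of low to high glucose was 0.828 for the de novo enzymes (1669 and 2015 TPM) and 0.764 for the salvage enzymes (648 and 848 TPM). Without the most abundant gene of each class, TYMS and APRT, these ratios were 0.870 and 0.777. Without the deoxynucleotide enzymes, the medians were -0.23 for 15 de novo and -0.17 for 9 salvage enzymes. The summed ratios then lay further apart, at 0.936 for de novo (1237 and 1322 TPM) and 0.805 for salvage (466 and 579 TPM). Among genes of at least 10 TPM the order of the medians turned, with -0.25 for both classes when rounded. The phosphorylases and the deaminase counted as salvage lay at 1.01 (UPP1), 0.09 (TYMP), 0.08 (ADA) and -0.18 (PNP). The order of the class medians therefore also depends on whether these genes are counted as salvage. The difference between the classes could not be tested with 1 library per medium.

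Kinases that raise the products of both routes to triphosphates were all lower in low glucose, with differences from -0.73 to -0.27. All 7 lay below 0 (45.3% of all genes compared did), with a median of -0.34. AK4, a mitochondrial adenylate kinase (chromosome 1, 65613232 to 65697828), was the lowest at 51.6 TPM in low and 86.5 TPM in high glucose (-0.73, 3.16th percentile), while the cytosolic AK1 stood at 16.9 TPM in low and 22.1 TPM in high glucose (-0.37). UMP/CMP kinase CMPK1 stood at 113 TPM in low and 158 TPM in high glucose (-0.48), guanylate kinase GUK1 at 104 TPM in low and 129 TPM in high glucose (-0.30), and thymidylate kinase DTYMK at 112 and 136 TPM in low and high glucose (-0.27).

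The nucleoside diphosphate kinases NME1 and NME2 were the most abundant members. NME2 stood at 1197 TPM in low and 1466 TPM in high glucose (-0.29) and NME1 at 458 TPM in low and 581 TPM in high glucose (-0.34). These neighbours are closely related in sequence and a read-through entry covers both (29.0 TPM in low and 40 TPM in high glucose), so their separate levels are uncertain. The sum of all 3 entries was 1684 TPM in low and 2087 TPM in high glucose, a ratio of 0.807. Without NME1 and NME2 the other members summed to 2775 TPM in low and 3476 TPM in high glucose, a ratio of 0.798.

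The breakdown enzymes differed in opposite directions. SAMHD1, which degrades deoxynucleoside triphosphates (chromosome 20, 35520227 to 35580246), stood at 12.9 TPM in low and 20.8 TPM in high glucose (-0.65, 4.59th percentile). XDH, which carries out the last steps to uric acid (chromosome 2, 31557188 to 31637611), stood at 3.63 TPM in low and 1.77 TPM in high glucose. Its TPM ratio was 2.05, while its difference on the log2(TPM + 1) scale was 0.74, because its level is near the pseudocount.

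**Figure D3:**
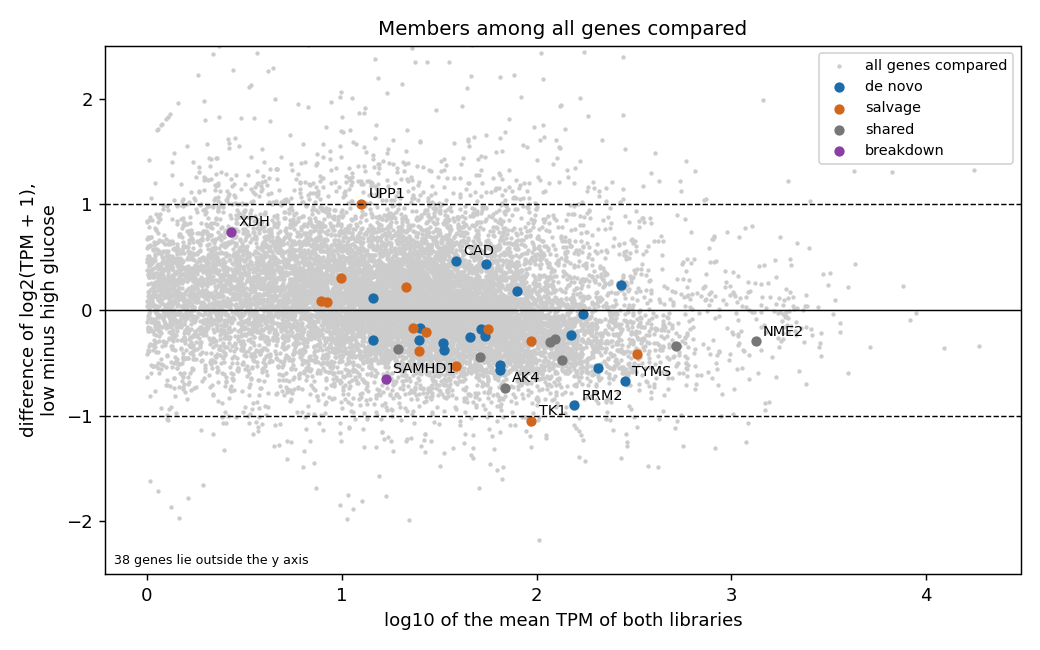
Log2(TPM + 1) in low glucose minus high glucose, plotted against the log10 of the mean TPM for all 13745 genes compared (grey) and the 43 members (coloured by class), with 1 library per medium, dashed lines at the 2-fold rule and 38 genes outside the y axis. The members span the range from XDH to NME2, and TK1 and RRM2 are the lowest of them.

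Differences varied with expression level over all genes. When genes were divided into 20 groups by mean TPM and each group's median was subtracted, the median of the members was -0.21 and 33 of 43 lay below 0. The subtraction sets the median of all genes compared to 0, so the 45.3% below 0 given above does not apply here. On that scale ADSL turned to 0.13, TK1 fell short of the 2-fold rule (-0.92) and no member met it.

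Ratios of paired enzymes compare transcripts inside one library. RRM2 stood above its p53-linked relative RRM2B (11.6 TPM in low and 13.9 TPM in high glucose) by a ratio of 9.39 in low and 14.6 in high glucose, and above RRM1 by 2.09 in low and 2.63 in high glucose. AK4 to AK1 was 3.04 in low and 3.91 in high glucose, and NME1 to NME2 was 0.382 in low and 0.397 in high glucose. ADSS to the muscle isozyme gene ADSSL1 was 25.7 in low and 57.1 in high glucose, with ADSSL1 at only 2.07 TPM in low and 1.34 TPM in high glucose. The largest shift among these pairs was in TK1 to TK2, and the smallest were in CTPS1 to CTPS2 and NME1 to NME2.

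**Figure D4:**
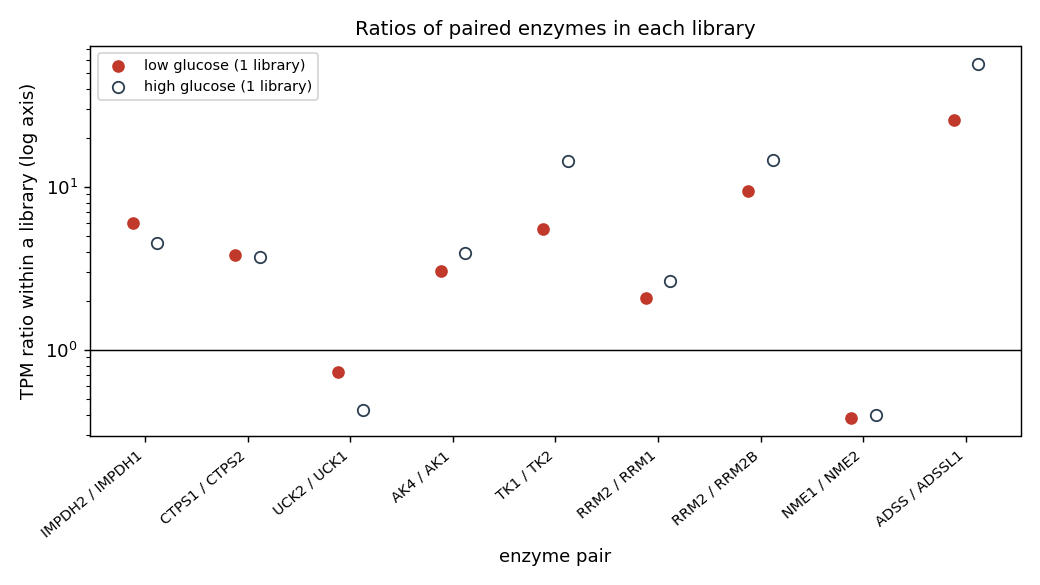
TPM ratio of paired enzymes within the low glucose library (filled red) and the high glucose library (open), on a log axis, 1 library per medium. TK1 to TK2 stands at 5.51 in low and 14.5 in high glucose, while CTPS1 to CTPS2 stands at 3.84 in low and 3.72 in high glucose.

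Other genes of nucleotide metabolism and nucleoside transport were read from a list of 54, of which 39 were compared. None met the 2-fold rule in either direction, 25 lay below 0 (64.1%, against 45.3% of all genes compared) and the median was -0.13. Its most abundant genes were NME4, a mitochondrial nucleoside diphosphate kinase (126 TPM in low and 185 TPM in high glucose), ITPA, which removes ITP (133 and 110.4 TPM in low and high glucose), the nucleotidase gene NT5C2 (109 TPM in low and 103 TPM in high glucose) and the deoxyribose-phosphate aldolase gene DERA (95.3 TPM in low and 115 TPM in high glucose). Named after their values were seen, the dCTP pyrophosphatase gene DCTPP1 (40.02 TPM in low and 72.2 TPM in high glucose, -0.84) and NUDT1, which clears oxidized purine triphosphates (31.0 TPM in low and 48.5 TPM in high glucose, -0.63), were the lowest of the list.

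A list of 12 regulators of growth and the cell cycle was mixed, with 7 below 0 (58.3%) and a median of -0.03. Over all genes compared, 45.3% lay below 0, 1.10% were at least 2-fold lower, 3.65% were at least 2-fold higher and the median was 0.05. MYC, a transcription factor known to raise many nucleotide synthesis genes, stood at 198 TPM in low and 105 TPM in high glucose (0.91). ATF4, the factor of the amino acid and integrated stress response, stood at 904 TPM in low and 658 TPM in high glucose (0.46). The regulator past the 2-fold rule was MYCN, a relative of MYC, at 3.0 TPM in low and 11.8 TPM in high glucose (-1.68). E2F2 was lower too (4.35 TPM in low and 9.05 TPM in high glucose, -0.91). So was RB1, which restrains E2F factors (29.2 TPM in low and 43.6 TPM in high glucose, -0.56). E2F3 went the other way and was higher in low glucose, with a difference of 0.27. MYCN, E2F2, RB1 and E2F3 were named after their values were seen. Transcript levels of a regulator do not measure its protein or activity.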

How the data were processed

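One RNA library per medium was analysed. Per the file headers, the authors deposited TPM per gene with 2 decimals, a symbol and an interval. The submitters' processing notes name cutadapt, RSEM 1.2.21 (which divides reads that map to several genes) and hg19, with aligner, annotation, filters and strand setting not given in the sources used here. Groups came from the treatment label, and no batch is named there. Because TPM has a fixed sum, a large rise in some genes pulls the rest down, and the depth is unknown.

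Values of log2(TPM + 1) in high glucose were subtracted from those in low glucose over all genes with a mean of at least 1 TPM with Python 3.11.15, pandas 2.3.3 and NumPy 2.4.6, and tested on simulated data. With 1 library per medium no test was run. Members, classes, lists and motifs were chosen with earlier results of these data known. The rule for named genes took every member, of the 54 further nucleotide genes those past the 2-fold rule and the 4 most abundant, and PCNA, MKI67, MYC, E2F1 and ATF4. Genes named outside it are given as chosen after their values were seen, apart from markers, partners in a ratio and overlapping genes. Promoter windows are RefSeq's on GRCh38.p14; no coordinates were converted. Alternatives were 4 other scalings, subtraction of expression-group medians, pseudocounts of 0.1 and 5, no filter, at least 10 TPM, and 1.5-fold and 3-fold thresholds.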

Additional observations from a re-analysis of the deposited data

How the results depend on the processing

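The direction of the class medians held under every alternative run, from -0.34 to -0.21 for the de novo and from -0.27 to -0.15 for the salvage enzymes, each within 0.1 of the value reported (a limit set because no replicate spread exists). Under other scalings or without the most abundant gene, summed ratios were 0.776 to 0.870 for de novo and 0.716 to 0.780 for salvage. Without the deoxynucleotide enzymes they were 0.936 and 0.805. Under the alternatives, 6 values of members fell short of the 2-fold rule (5 of UPP1, 1 of TK1) and 377 kept their side of it. Only UPP1 and TK1 passed the rule as reported, so no other member could fall short. The 377 also include values under a changed minimum TPM or none, which leaves each difference as it was. That count is therefore not a measure of stability. The number of members at least 2-fold higher, 1 as reported, was 0 with median-of-ratios, upper-quartile or trimmed-mean scaling, with expression-group medians subtracted, with a pseudocount of 5 and at 3-fold, and 2 at 1.5-fold. The number at least 2-fold lower, 1 as reported, was 0 with expression-group medians subtracted and at 3-fold, and 5 at 1.5-fold. The number at least 1.5-fold lower, 5 as reported, was 9 with median-of-ratios or trimmed-mean scaling, which moved the median of all genes to -0.03. The sign turned for ADA under 3 alternatives and for ADSL and TYMP under 1. Leaving out a replicate was not possible with 1 library per medium. Small differences cannot be told from variation between cultures here, and genes of few TPM, such as XDH and ADA, rest on an unknown number of reads.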

Other observations

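Folate genes that supply carbon units to purine and thymidylate synthesis were not uniform. In a list of 14, the median difference was 0.37, 2 were at least 2-fold higher and none was 2-fold lower. Over all genes compared, the median was 0.05, with 3.65% at least 2-fold higher and 1.10% at least 2-fold lower. Of the 14, 8 lay above 0 and 6 below. The mitochondrial enzyme genes MTHFD2 (212 TPM in low and 54.4 TPM in high glucose) and ALDH1L2 (16.3 and 3.27 TPM in low and high glucose) were those past the rule. These genes were named after their values were seen.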
